A study of Mus musculus with 9 samples.

Results

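The pore-forming alpha-1 subunits of voltage-gated calcium channels were followed in hippocampal RNA of lupus-prone mice. The genes were chosen by name as a family (Cacna1a, Cacna1b, Cacna1c, Cacna1d, Cacna1e, Cacna1g, Cacna1h and Cacna1i) and were found by symbol in the count matrix, 8 of its 47643 genes. Libraries came from the hippocampus of 9 mice at 6 weeks of age, 1 library each, in 3 groups of 3. MRL/mpj mice, labelled wild type and untreated, were the controls. The lpr mutation of MRL/lpr mice lies in Fas, a death receptor of lymphocytes, and these mice develop lupus spontaneously. MRL/lpr+MSC mice had the same genotype and received mesenchymal stem cells, for which the cell source, dose, route and time were not given in the sources used here. The study's methods give MRL/lpr and MRL/mpj mice the MRL background and do not describe the MRL/lpr+MSC group. The strain label of every library is C57BL/6.

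Voltage-gated calcium channels open when the membrane depolarizes and let calcium into the neuron. The alpha-1 subunit forms the pore and the voltage sensor, and it sets the class of the current. P/Q-type (Cacna1a), N-type (Cacna1b) and R-type (Cacna1e) channels sit largely at presynaptic terminals, where their calcium triggers transmitter release. The R type also sits in dendrites. L-type channels (Cacna1c and Cacna1d) couple activity to transcription, and T-type channels (Cacna1g, Cacna1h and Cacna1i) open near the resting potential and drive burst firing. Beta and alpha2delta subunits bring the pore to the membrane and tune its gating, and several of the gamma subunits act mainly on AMPA receptors.

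Total counts ran from 19475804 to 26912031 per library, so that 3 counts stood for 0.105 to 0.163 CPM (counts relative to library size after scaling), which covers counting error only. Markers of CA1, CA2 and CA3 and dentate granule neurons were above 3 counts in every library labelled hippocampus. The libraries were uneven in markers of other cell types. The sum of 5 choroid plexus markers was 9579 CPM in MRL/lpr replicate 2 and 4806 CPM in MRL/lpr+MSC replicate 2, against 95.7 to 1052 CPM in the other 7 libraries, and 8 interneuron markers summed to 1576 CPM in MRL/lpr replicate 3 and 1282 CPM in MRL/lpr+MSC replicate 3, against 442 to 741 CPM elsewhere. The markers of the interneuron list did not move together, since 4 of the 8 were above and 3 below all MRL/mpj libraries in MRL/lpr replicate 3. By the rule for differential expression given below, 3 were lower and 0 higher in MRL/lpr mice (median log2 fold change -0.47). Over all genes, 2.38% were lower and 3.41% higher by this rule. Fas had overlapping levels in the groups, 1.63 to 2.0 CPM in MRL/mpj, 1.33 to 2.27 CPM in MRL/lpr and 0.985 to 1.81 CPM in MRL/lpr+MSC mice, so the gene total did not check the genotype. In a supplementary expression table of the study, columns headed MRL/lpr followed libraries that carry the label MRL/lpr+MSC and not libraries that carry the label MRL/lpr. The labels were kept, and if these 2 were exchanged, the values given for the 2 groups would change places.

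The 8 genes lie on different chromosomes of GRCm38 and differ in length. Among the presynaptic class, Cacna1a (ENSMUSG00000034656) spans 84388440 to 84640246 of chromosome 8 on the plus strand, Cacna1b (ENSMUSG00000004113) spans 24603887 to 24763152 of chromosome 2 on the minus strand, and Cacna1e (ENSMUSG00000004110) spans 154390731 to 154884501 of chromosome 1 on the minus strand. Of the L-type genes, Cacna1c (ENSMUSG00000051331) spans 118587240 to 119196418 of chromosome 6 and Cacna1d (ENSMUSG00000015968) spans 30039939 to 30491455 of chromosome 14, both on the minus strand. Of the T-type genes, Cacna1g (ENSMUSG00000020866) spans 94408391 to 94474198 of chromosome 11 and Cacna1h (ENSMUSG00000024112) spans 25374285 to 25433783 of chromosome 17, both on the minus strand, and Cacna1i (ENSMUSG00000022416) spans 80287238 to 80398279 of chromosome 15 on the plus strand. The annotated exons cover from 9763 bases in Cacna1h to 25228 bases in Cacna1e. No other annotated gene overlaps Cacna1e, Cacna1g or Cacna1i, whereas Cacna1a, Cacna1b, Cacna1c, Cacna1d and Cacna1h each overlap at least 1 gene or pseudogene. The library kit does not mark strand, so reads shared with an overlapping gene or pseudogene on the other strand cannot be told apart. Such overlaps were antisense Gm16183 in Cacna1a, pseudogene Gm13459 in Cacna1b, Dcp1b and Gm25905 in Cacna1c, Dcp1a and Chdh in Cacna1d, and Tpsg1 in Cacna1h.

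All 8 genes were expressed in every library. On the scale of the deposited FPKM values, which divide counts by gene length and library size and so allow levels of different genes to be compared, the R-type gene Cacna1e had the highest mean level over the 9 libraries, 18.8 ± 2.13 FPKM (SD, n = 9). The T-type gene Cacna1h followed at 16.0 ± 2.86 FPKM, the P/Q-type gene Cacna1a at 14.5 ± 1.76 FPKM and the N-type gene Cacna1b at 12.3 ± 2.07 FPKM (SD, n = 9 for each). The other 4 genes had lower means, 6.58 ± 2.58 FPKM for Cacna1i, 6.45 ± 2.72 FPKM for Cacna1g, 5.97 ± 1.57 FPKM for Cacna1c and 5.25 ± 0.442 FPKM for Cacna1d (SD, n = 9 for each). Cacna1e exceeded Cacna1h in 9 of 9 libraries, Cacna1h exceeded Cacna1a in 7, Cacna1a exceeded Cacna1b in 9 and Cacna1b exceeded Cacna1i in 9. Below Cacna1b the order was not fixed, since Cacna1i exceeded Cacna1g in 4 of 9 libraries, Cacna1g exceeded Cacna1c in 4 and Cacna1c exceeded Cacna1d in 7. The ranges of every pair of neighbours overlapped over the 9 libraries. Dividing CPM by the annotated exon length instead gave the same order for 8 of 8 genes.

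**Figure D1:**
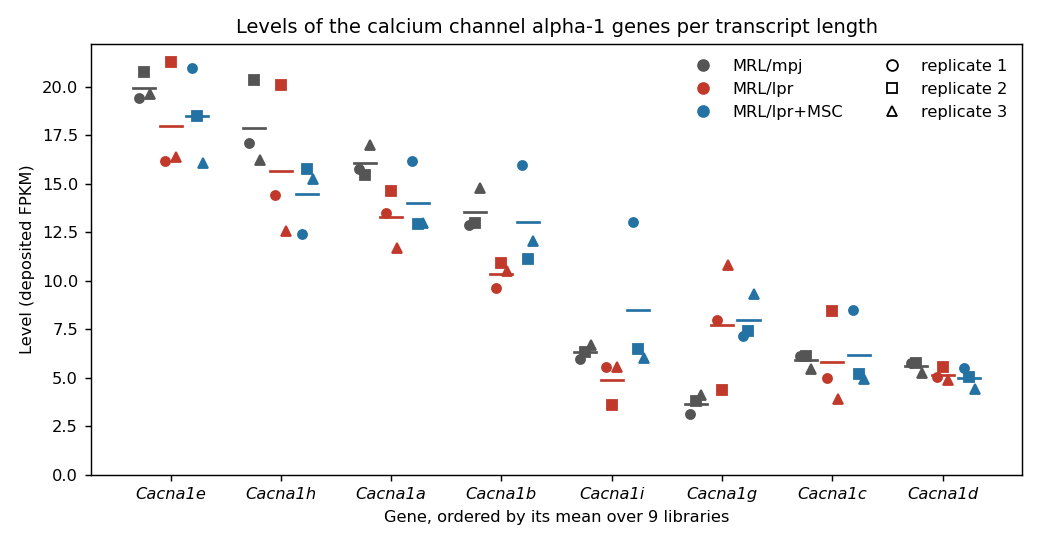
Deposited FPKM (vertical axis, from 0) of the 8 alpha-1 genes (horizontal axis, ordered by their mean over 9 libraries), with 1 point per library, coloured by group and shaped by replicate, and a line at each group mean. Cacna1e, Cacna1h, Cacna1a and Cacna1b lie between 9.62 and 21.3 FPKM, and Cacna1g is the lowest of the 8 genes in MRL/mpj mice at 3.11 to 4.12 FPKM and ranks 5 in MRL/lpr mice at 4.36 to 10.8 FPKM.

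By group mean the upper ranks stayed and the lower ranks moved. Cacna1e, Cacna1h, Cacna1a and Cacna1b held ranks 1 to 4 by mean FPKM in each of the 3 groups. Single libraries departed from this. Cacna1g (10.8 FPKM) exceeded Cacna1b (10.5 FPKM) in MRL/lpr replicate 3, and Cacna1i (13.0 FPKM) exceeded Cacna1h (12.4 FPKM) in MRL/lpr+MSC replicate 1. Cacna1g was last of 8 in MRL/mpj mice with 3.68 FPKM, at rank 5 in MRL/lpr mice with 7.71 FPKM and at rank 6 in MRL/lpr+MSC mice with 7.98 FPKM. Cacna1i was at rank 5 in MRL/mpj mice with 6.33 FPKM, last in MRL/lpr mice with 4.90 FPKM and at rank 5 in MRL/lpr+MSC mice with 8.50 FPKM. Among the 3 T-type genes, Cacna1g made up 11.9% to 15.2% of their summed FPKM in MRL/mpj libraries, 15.5% to 37.4% in MRL/lpr libraries and 22.0% to 30.5% in MRL/lpr+MSC libraries. Cacna1h made up 60.1% to 66.8%, 43.4% to 71.7% and 38.1% to 53.2% in the same order of groups. The T-type class as a whole varied less, from 30.3% to 33.3%, 31.5% to 37.9% and 32.7% to 37.7% of the summed FPKM of the 8 genes.

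MRL/lpr and MRL/mpj mice were compared to ask how hippocampal transcripts change in lupus-prone mice at 6 weeks. None of the 8 genes was differentially expressed (at least 1.5-fold with an adjusted p under 0.05 by limma voom), against 5.79% of the 16697 genes tested. Cacna1b was the single member whose adjusted p alone passed, with a lower level by less than 1.5-fold, against 9.3% of all genes. Cacna1g had the largest difference of the family, a 2.0-fold higher fitted level that did not pass the adjusted threshold. The groups did not overlap for 4 of 8 members (Cacna1a, Cacna1b and Cacna1i with lower values and Cacna1g with higher values), against 38% of all genes. Fitted differences were negative for 7 of 8 members, against 47.2% of all genes, and the median log2 fold change of the 8 was -0.17 against 0.02 over all genes tested.

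**Figure D2:**
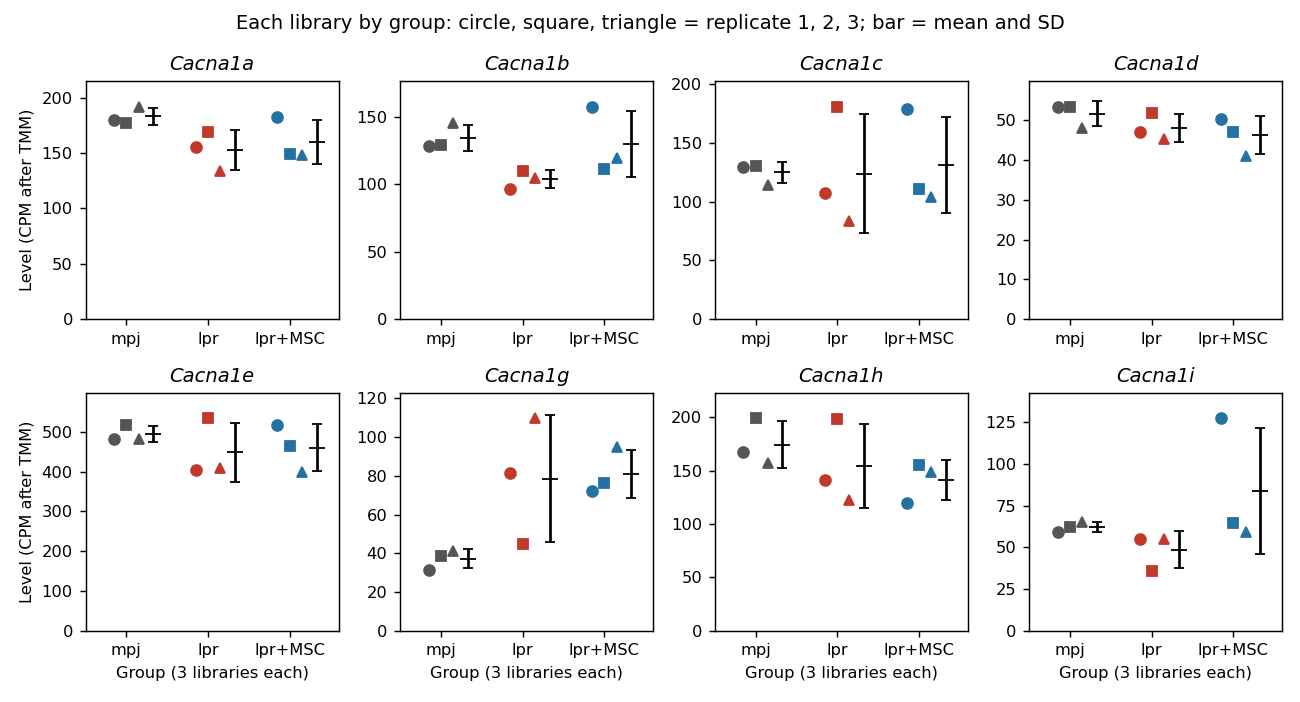
CPM after TMM scaling (vertical axes, each from 0) of the 8 alpha-1 genes in each of the 3 groups (horizontal axes), with 1 point per library shaped by replicate and the mean with its SD in black. For Cacna1b the MRL/lpr libraries (96.4 to 110 CPM) lie below the MRL/mpj libraries (128 to 146 CPM), and for Cacna1g all 6 libraries of the MRL/lpr and MRL/lpr+MSC groups (44.6 to 110 CPM) lie above the MRL/mpj libraries (31.6 to 41.4 CPM).

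Among the presynaptic channel genes, Cacna1b, the pore of the N-type channel, had 128, 129 and 146 CPM in the MRL/mpj libraries (replicates 1, 2 and 3), 96.4, 110 and 105 CPM in the MRL/lpr libraries, and 158, 112 and 120 CPM in the MRL/lpr+MSC libraries. Every MRL/lpr library was below every library of both other groups. The level in MRL/lpr mice was lower than in MRL/mpj mice by a log2 fold change of -0.37 (SE 0.0812, adjusted p = 0.0388 by limma voom). This difference is 0.773-fold with a 95% interval of 0.677 to 0.884, and its adjusted p lay between 0.0226 and 0.143 with single libraries left out, passing without MRL/lpr replicate 2 or 3 and missing without MRL/lpr replicate 1 or any MRL/mpj replicate. It also missed in a fit of all 9 libraries together (adjusted p = 0.0962 by limma voom). The sum of 5 pan-neuronal markers, led by Snap25 of the synaptic vesicle fusion machinery and the dendritic protein gene Map2, was 4518 to 5125 CPM in MRL/lpr libraries and 5892 to 6804 CPM in MRL/mpj libraries. None of these 5 markers was at 0, and 0 of 5 were differentially expressed, against 5.79% of all genes. All 5 had negative log2 fold changes, with a median of -0.34, and 1 passed by adjusted p alone, against 9.3% of all genes. The groups did not overlap for 4 of the 5, against 38% of all genes. Map2 was the marker that overlapped, at 1249 to 1475 CPM in MRL/lpr and 1449 to 1534 CPM in MRL/mpj libraries. Markers of thalamic and striatal neurons had positive medians in MRL/lpr mice, 0.46 and 0.42. The medians of the other neuron lists were negative. They were -0.93 for CA1 pyramidal, -0.23 for CA2 and CA3, -0.24 for dentate granule and -0.17 for cortical neurons, and -0.47 for interneurons. The part of these neuron types in the Cacna1b result was not tested. In RNA of whole tissue fewer cells of a type and less RNA per cell cannot be told apart.

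Cacna1a, the pore of the P/Q-type channel that carries most of the fast transmitter release, had 180.0, 177 and 192 CPM in MRL/mpj libraries, 156, 169 and 134 CPM in MRL/lpr libraries, and 183, 149 and 148 CPM in MRL/lpr+MSC libraries. The MRL/lpr libraries lay below all MRL/mpj libraries. The log2 fold change in MRL/lpr mice was -0.26 (95% interval -0.49 to -0.03, adjusted p = 0.123 by limma voom). Cacna1e, the pore of the R-type channel, had 482, 517 and 482 CPM in MRL/mpj libraries, 405, 534 and 408 CPM in MRL/lpr libraries, and 516, 463 and 399 CPM in MRL/lpr+MSC libraries. Its groups overlapped, with MRL/lpr replicate 2 the highest of all 9 libraries, and the log2 fold change in MRL/lpr mice was -0.14 (95% interval -0.42 to 0.13).

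Promoter sequences from RefSeq (GRCm38.p6) were at hand for 5 of the 8 members, Cacna1b, Cacna1c, Cacna1d, Cacna1e and Cacna1i, with 8 annotated starts. Those of Cacna1b and Cacna1i are shown because these genes had the most negative fold changes of the family in MRL/lpr mice. Each line gives the 250 bases before the start, from 5′ to 3′ along the gene, and the GC box (GGGCGG) is in capitals.
Cacna1b promoter, chr2:24763153-24763402, minus strand: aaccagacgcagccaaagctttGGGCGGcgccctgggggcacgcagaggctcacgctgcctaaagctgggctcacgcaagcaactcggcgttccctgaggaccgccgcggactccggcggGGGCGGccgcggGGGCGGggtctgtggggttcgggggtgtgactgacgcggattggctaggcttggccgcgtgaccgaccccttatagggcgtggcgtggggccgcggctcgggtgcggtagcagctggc
Cacna1i promoter, chr15:80286988-80287237, plus strand: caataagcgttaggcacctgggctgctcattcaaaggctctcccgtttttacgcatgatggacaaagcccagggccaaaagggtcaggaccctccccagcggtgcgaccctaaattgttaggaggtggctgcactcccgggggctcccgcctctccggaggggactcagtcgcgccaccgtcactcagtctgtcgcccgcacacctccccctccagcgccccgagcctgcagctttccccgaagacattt
The window that was searched also held the 50 bases after the start, on both strands, and matches could overlap. The Cacna1b window held 3 GC boxes and had 72.3% GC, and the Cacna1i window held none and had 62.7% GC. A GC box was in 3 of the 8 member windows (1 each of Cacna1b, Cacna1c and Cacna1d) and in 35.7% of all 32851 promoter windows of this length. The NR4A response element AAAGGTCA (NBRE), bound by the orphan nuclear receptors of the NR4A family, was in none of the 8 windows and in 1.51% of all windows, and the cyclic AMP response element TGACGTCA was in none and in 1.79%. The E-box CACGTG was in none and in 7.15% of all windows, and TATAAA was in 1 window of Cacna1d and in 13.6% of all windows.

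The L-type genes had similar group means. Cacna1c, the main L-type pore of forebrain neurons and smooth muscle, had 130, 131 and 115 CPM in MRL/mpj libraries, 107, 181 and 83.5 CPM in MRL/lpr libraries, and 179, 111 and 104 CPM in MRL/lpr+MSC libraries. The MRL/lpr libraries spread over 2.17-fold, with replicate 2 highest and replicate 3 lowest of all 9 libraries, and enclosed the whole MRL/mpj range. The log2 fold change in MRL/lpr mice was -0.08 with a 95% interval from -0.72 to 0.56, so a 1.47-fold rise and a 0.606-fold level both stayed inside the interval. Cacna1d, the L-type pore that opens at more negative potentials, had 53.4, 53.4 and 48.1 CPM in MRL/mpj libraries, 47.0, 51.9 and 45.2 CPM in MRL/lpr libraries, and 50.4, 47.1 and 41.1 CPM in MRL/lpr+MSC libraries. It was the least variable member, with 1.30-fold between its highest and lowest library, and its groups overlapped. Its log2 fold change in MRL/lpr mice was -0.10 with a 95% interval from -0.30 to 0.09.

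The T-type genes differed from one another in direction. Cacna1h, the T-type gene with the highest level, had 167, 199 and 157 CPM in MRL/mpj libraries, 142, 198 and 123 CPM in MRL/lpr libraries, and 120, 156 and 149 CPM in MRL/lpr+MSC libraries. Its MRL/lpr and MRL/mpj groups overlapped (log2 fold change -0.20, 95% interval -0.64 to 0.25). Cacna1i, a T-type pore known from the reticular thalamus and cortex, had 59.1, 62.4 and 65.3 CPM in MRL/mpj libraries, 55.3, 35.8 and 54.8 CPM in MRL/lpr libraries, and 127, 64.5 and 59.3 CPM in MRL/lpr+MSC libraries. Every MRL/lpr library lay below every library of both other groups, and MRL/lpr+MSC replicate 1 stood far above the remaining 8 libraries. The log2 fold change in MRL/lpr mice was -0.37 (95% interval -0.78 to 0.03, adjusted p = 0.194 by limma voom).

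Cacna1g, the T-type pore that drives burst firing of thalamic relay neurons and is also found in hippocampal interneurons, had 31.6, 38.6 and 41.4 CPM in MRL/mpj libraries, 81.3, 44.6 and 110 CPM in MRL/lpr libraries, and 72.0, 76.0 and 94.8 CPM in MRL/lpr+MSC libraries. All MRL/mpj libraries lay below all libraries of the other 2 groups, and MRL/lpr replicate 2 lay close to the controls. In MRL/lpr mice the level was 2.0-fold higher with a 95% interval of 1.14 to 3.51 (log2 fold change 1.00, SE 0.338, adjusted p = 0.107 by limma voom). With single libraries left out, the log2 fold change lay between 0.72 (without MRL/lpr replicate 3, adjusted p = 0.155 by limma voom) and 1.35 (without MRL/lpr replicate 2, the library rich in choroid plexus markers, adjusted p = 0.00696 by limma voom), and the gene passed without MRL/lpr replicate 2 and in none of the other 5 fits with a library left out. Weighting libraries by their quality, an alternative chosen after the data were seen, gave 1.06 and also passed (adjusted p = 0.0226 by limma voom), so that 2 of 15 alternatives passed.

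Between MRL/lpr+MSC and MRL/mpj mice, 1 of the 8 genes was differentially expressed, against 3.43% of the 16196 genes tested. Cacna1g was 2.18-fold higher, with a 95% interval of 1.74 to 2.74 (log2 fold change 1.13, SE 0.140, adjusted p = 0.00783 by limma voom), and all 3 MRL/lpr+MSC libraries lay above all 3 MRL/mpj libraries. The smaller spread of the 3 MRL/lpr+MSC libraries, 80.9 ± 12.1 CPM (SD, n = 3) against 78.5 ± 32.6 CPM (SD, n = 3) in MRL/lpr and 37.2 ± 5.03 CPM (SD, n = 3) in MRL/mpj mice, went with a smaller standard error at a similar size of the difference. The call was lost in a test against a 1.5-fold change (adjusted p = 0.244), in a fit of all 9 libraries together (adjusted p = 0.0904) and without MRL/mpj replicate 2 (adjusted p = 0.0502), each by limma. Both comparisons use the same MRL/mpj libraries and are therefore not independent. The study lists Cacna1g among the genes of a calcium signaling pathway that it found enriched between its MRL/mpj and MRL/lpr mice. In a supplementary expression table of the study, the MRL/lpr columns followed the libraries labelled MRL/lpr+MSC, as described above.

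Of the remaining members, Cacna1h had the next lowest unadjusted p in MRL/lpr+MSC mice, with a log2 fold change of -0.30 (95% interval -0.60 to 0.01, adjusted p = 0.224 by limma voom) and groups that did not overlap. Non-overlapping groups were found for 2 of 8 members, Cacna1g and Cacna1h, against 29.6% of all genes. The log2 fold changes were -0.19 for Cacna1a, -0.06 for Cacna1b, 0.04 for Cacna1c, -0.16 for Cacna1d and -0.10 for Cacna1e, with groups that overlapped and 95% intervals that held 0. Cacna1i had a log2 fold change of 0.34 (95% interval -0.32 to 1.00) that came from a single library, and without MRL/lpr+MSC replicate 1 it was -0.00407. The median log2 fold change of the 8 genes was -0.08 against 0.01 over all genes tested.

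MRL/lpr+MSC and MRL/lpr mice were compared for the effect of the stem cells. None of the 8 members passed, and 0 of the 16758 genes tested (0%) were differentially expressed by limma voom, with 647 genes at an unadjusted p under 0.05 and 0 passing in limma-trend. Cacna1g differed by a log2 fold change of 0.13 with a 95% interval from -0.66 to 0.92, so its passing the threshold in MRL/lpr+MSC mice and not in MRL/lpr mice was not a difference between these groups beyond their spread. Cacna1i had the largest fitted difference, 0.72 (95% interval -0.07 to 1.52, adjusted p = 0.921 by limma voom), followed by Cacna1b with 0.31 (95% interval -0.03 to 0.65, adjusted p = 0.921 by limma voom). For these 2 genes the groups did not overlap, against 9.98% of all genes. Without MRL/lpr+MSC replicate 1, the highest library for both genes, the log2 fold changes were 0.37 for Cacna1i and 0.15 for Cacna1b. The fitted values of Cacna1a (0.07), Cacna1c (0.12), Cacna1d (-0.06), Cacna1e (0.04) and Cacna1h (-0.10) were within 0.13 of 0 on the log2 scale, and the widest of their intervals, that of Cacna1c, ran from -0.67 to 0.92.

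**Figure D3:**
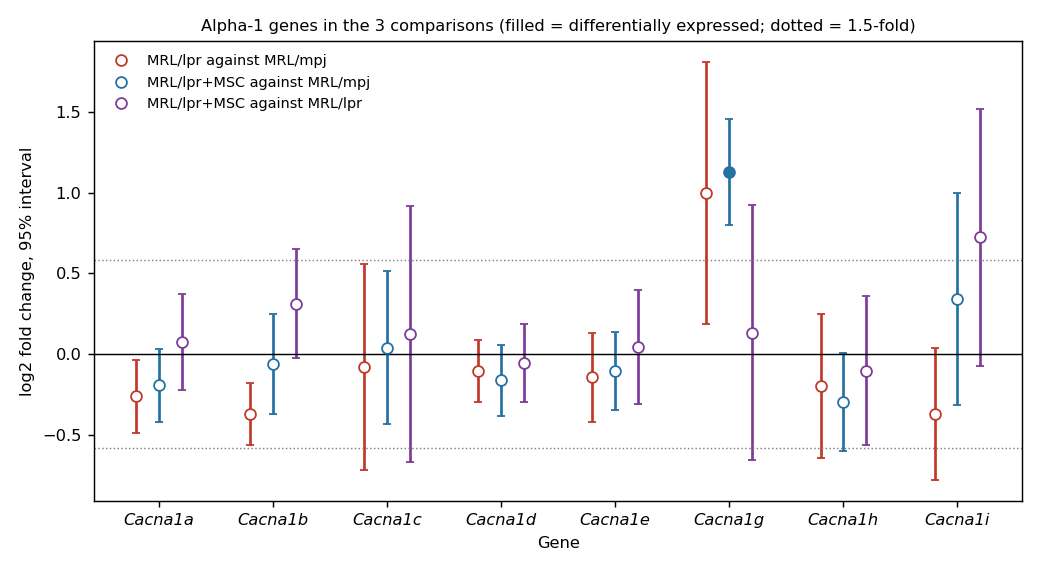
log2 fold change with its 95% interval (vertical axis) for the 8 alpha-1 genes (horizontal axis) in the 3 comparisons, from limma voom, with dotted lines at 1.5-fold and filled points for differential expression. Cacna1g in MRL/lpr+MSC against MRL/mpj mice is the single filled point, and the interval of Cacna1b in MRL/lpr against MRL/mpj mice lies wholly below 0 but inside the dotted lines.

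Markers of neurons outside the hippocampus were compared with Cacna1g by library, since the gene is abundant in the thalamus. The sum of 10 thalamic markers, led by Zic1 and Prkcd, was 164 to 207 CPM in MRL/mpj libraries, 468, 224 and 642 CPM in MRL/lpr replicates 1, 2 and 3, and 96.0, 373 and 577 CPM in MRL/lpr+MSC replicates 1, 2 and 3. All 10 markers were above 3 counts in every library. Against MRL/mpj mice, 0 of the 10 were differentially expressed in MRL/lpr (5.79% of all genes) or MRL/lpr+MSC mice (3.43% of all genes). Their log2 fold changes had a median of 0.46 in MRL/lpr and 0.40 in MRL/lpr+MSC mice. In the MRL/lpr group the library with the lowest thalamic sum also had the lowest Cacna1g level and the library with the highest sum had the highest. In MRL/lpr+MSC replicate 1 the thalamic sum was below that of every MRL/mpj library and Cacna1g, at 72.0 CPM, was above all of them. Of the 10 thalamic markers in that library, 4 lay below all MRL/mpj libraries (among them Prkcd at 13.4 against 61.1 to 94.5 CPM and Zic1 at 11.1 against 14.9 to 30.6 CPM), 4 lay within their range and 2 lay above all of them. The sum of 8 interneuron markers, led by Gad1 and Gad2, was 634 to 701 CPM in MRL/mpj libraries. In replicates 1, 2 and 3 it was 733, 442 and 1576 CPM in MRL/lpr and 641, 741 and 1282 CPM in MRL/lpr+MSC mice. Within each group this sum ranked the libraries in the order of their Cacna1g levels. Between groups, MRL/lpr+MSC replicate 1 lay within the MRL/mpj range of the sum, with Cacna1g above all MRL/mpj libraries. The markers of this list did not move together, as described above. The part of these cell types in the Cacna1g result was not tested.

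Cortical markers were compared with Cacna1i by library. The sum of 5 cortical markers, led by Tbr1, was 191 CPM in MRL/lpr+MSC replicate 1, the library with the highest Cacna1i level, and 104 to 147 CPM in the remaining 8 libraries. The MRL/lpr libraries, at 104 to 123 CPM, lay below the MRL/mpj libraries, at 141 to 143 CPM. Of the 5 cortical markers, 2 were differentially expressed and lower in MRL/lpr mice, against 2.38% of all genes, and all 5 log2 fold changes were negative. In MRL/lpr+MSC mice 0 of 5 were differentially expressed, against 3.43% of all genes. None of the 5 markers was at 0, and their part in the Cacna1i result was not tested. Choroid plexus markers, led by Ttr and Kl, were highest in MRL/lpr replicate 2, where Cacna1i was lowest and Cacna1c and Cacna1e were highest. In that library 6 of 7 dentate granule markers also lay above all MRL/mpj libraries. MRL/lpr+MSC replicate 2, with a choroid plexus sum of 4806 CPM, had 110.9, 463.5 and 64.5 CPM of Cacna1c, Cacna1e and Cacna1i. In MRL/lpr+MSC replicate 1 that sum was 98.3 CPM, with Cacna1c at 179 and Cacna1e at 516 CPM. The part of choroid plexus and dentate granule cells in these values was not tested. Of 4 CA1 pyramidal markers, 3 were lower in MRL/lpr mice by the rule for differential expression, against 2.38% of all genes. All 4 lymphocyte markers were higher by this rule, against 3.41% of all genes. In MRL/mpj libraries these 4 summed to 0.172 to 0.948 CPM, with at most 1 of them above 3 counts. Their fold changes therefore rest on very low control levels.

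**Figure D4:**
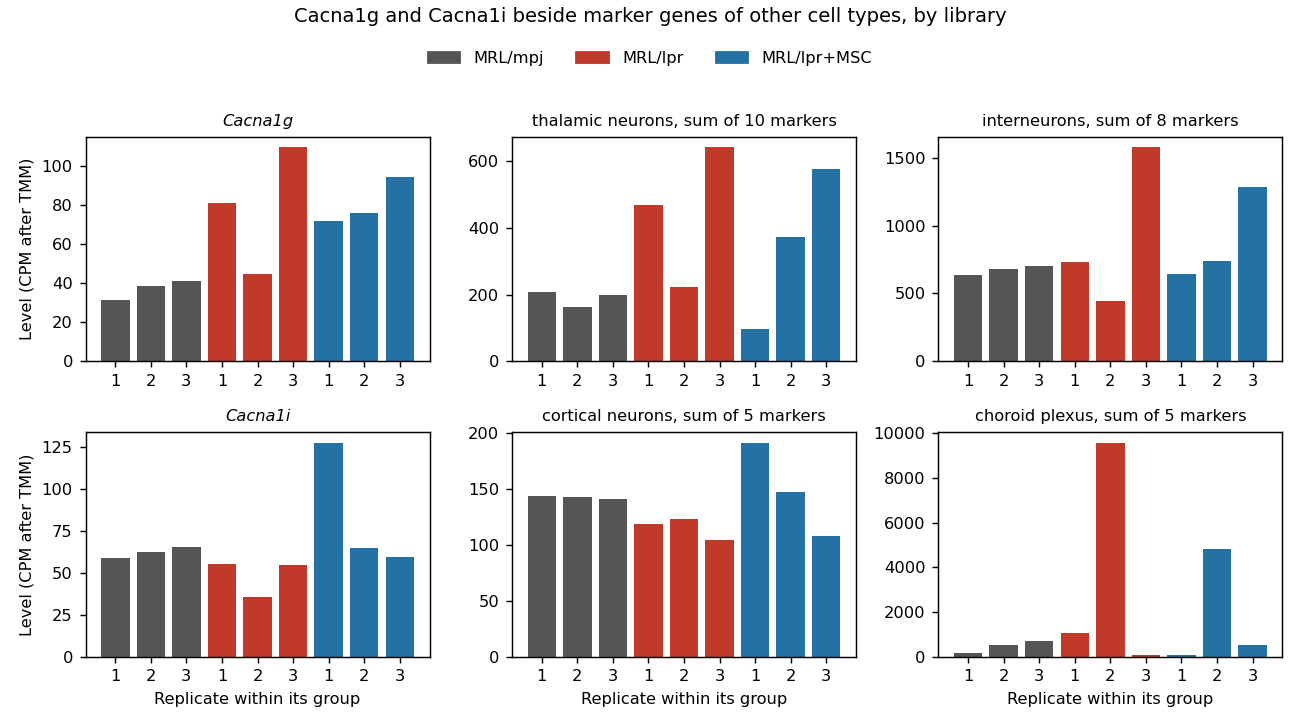
CPM after TMM scaling (vertical axes, from 0) in each of the 9 libraries (horizontal axes, replicate number within its group, bars coloured by group) for Cacna1g and Cacna1i and for the summed markers of thalamic neurons, interneurons, cortical neurons and choroid plexus. Cacna1g and the thalamic sum are both highest in MRL/lpr replicate 3 (110 and 642 CPM), and MRL/lpr+MSC replicate 1 (72.0 and 96.0 CPM) has the lowest thalamic sum.

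The genes whose pattern was most like that of Cacna1g were searched among the 14943 genes whose mean reached 1 CPM. Over the 9 libraries, log2 CPM of Rps6ka6, a ribosomal S6 kinase, had a Pearson r of 0.988 with Cacna1g, followed by Hs3st2, a heparan sulfate sulfotransferase, at 0.981 and Megf6, a protein with EGF-like repeats, at 0.977. With each library's value taken relative to its group mean, the leading genes were Rps6ka6 at 0.987, Kcnj12, an inward rectifier potassium channel, at 0.986 and Hs3st2 at 0.978. These values describe 9 libraries that share 3 groups and uneven cell markers, and they were the highest of many genes.

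Of the 16 auxiliary subunit genes (beta, alpha2delta and gamma), 15 were tested, 11 of these had negative log2 fold changes in MRL/lpr mice (against 47.2% of all genes) and 1 was differentially expressed (against 5.79%). Cacng1, a skeletal muscle gamma subunit, was too low to be tested. For the 4 beta genes, which chaperone the pore to the membrane, log2 fold changes in MRL/lpr mice ran from -0.39 (Cacnb1) to -0.21 (Cacnb4), with a median of -0.37 and 0 of 4 differentially expressed. Cacnb1 had 132, 157 and 156 CPM in MRL/mpj and 112, 113 and 114 CPM in MRL/lpr libraries, with no overlap, and it passed by adjusted p alone (adjusted p = 0.0358 by limma voom), as did Cacnb2 (log2 fold change -0.36, adjusted p = 0.0253 by limma voom). The 4 beta genes lay between -0.20 (Cacnb2) and -0.02 (Cacnb4) in MRL/lpr+MSC mice, and 0 of 4 passed by either rule, against 5.01% of all genes with an adjusted p under 0.05.

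The 4 alpha2delta genes set the surface density of channels and bind gabapentin in the case of Cacna2d1 and Cacna2d2. None of the 4 was differentially expressed in MRL/lpr mice, against 5.79% of all genes. In MRL/lpr+MSC mice 1 was differentially expressed and lower, against 3.43% of all genes differentially expressed. That gene was Cacna2d4, at 4.46 ± 0.292 CPM (SD, n = 3) in MRL/mpj and 2.37 ± 0.317 CPM (SD, n = 3) in MRL/lpr+MSC mice (log2 fold change -0.90, adjusted p = 0.0380 by limma voom). Cacna2d2 had the largest difference, 1.75 in MRL/lpr (adjusted p = 0.213 by limma voom) and 1.44 in MRL/lpr+MSC mice (adjusted p = 0.328 by limma voom). It had 19.8 to 23.5 CPM in MRL/mpj libraries, 74.9, 24.4 and 207 CPM in MRL/lpr libraries and 19.5, 67.8 and 146 CPM in MRL/lpr+MSC libraries. The 2 libraries with the most Cacna2d2 were the 2 with the highest interneuron sums, which are led by Gad1 and Gad2 in a list whose median was negative in MRL/lpr mice, and their part was not tested. Cacna2d3 had the lowest value in MRL/lpr mice, -0.80 (adjusted p = 0.0839 by limma voom).

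Of the 8 gamma genes, 7 were tested. Cacng3, a regulator of AMPA receptors, was lower in MRL/lpr mice and was differentially expressed, with 51.2, 46.4 and 51.4 CPM in MRL/mpj and 31.0, 35.1 and 32.4 CPM in MRL/lpr libraries (log2 fold change -0.59, adjusted p = 0.0116 by limma voom). Cacng8, another AMPA receptor regulator, was lower by adjusted p alone in MRL/lpr mice (log2 fold change -0.54, adjusted p = 0.0233 by limma voom) and in MRL/lpr+MSC mice (log2 fold change -0.52, adjusted p = 0.0129 by limma voom). Cacng5 had the largest value in MRL/lpr mice, 0.66 (adjusted p = 0.201 by limma voom), with overlapping groups. No gamma gene was differentially expressed in MRL/lpr+MSC mice, against 3.43% of all genes, and Cacng4 had the largest value, 0.23. The alpha-1 genes of retina and skeletal muscle, Cacna1f and Cacna1s, stayed below 1 CPM in every library and were not tested.

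**Figure D5:**
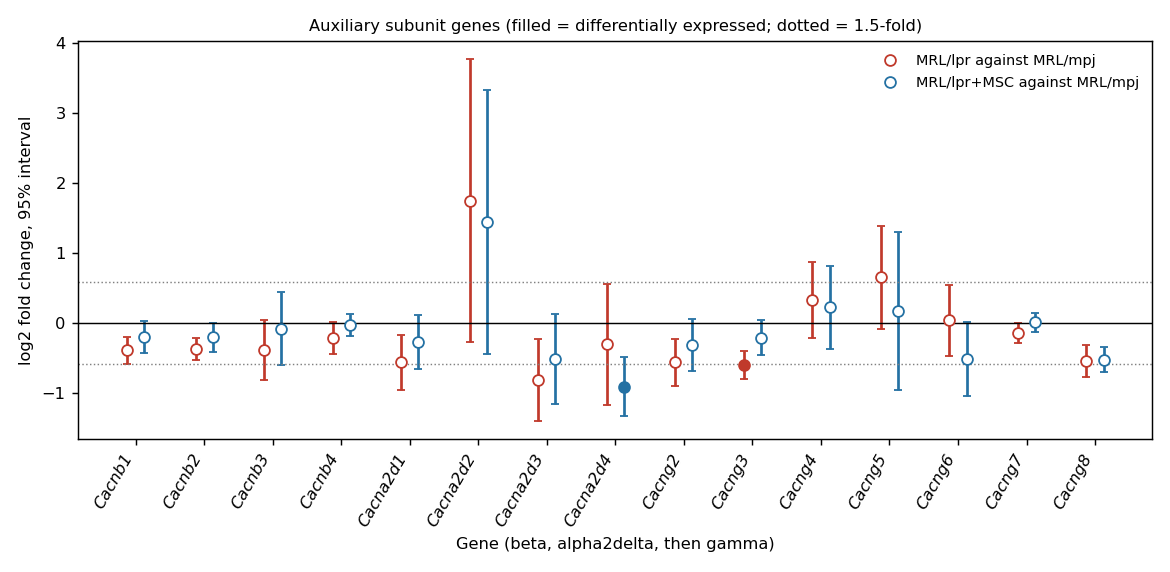
log2 fold change with its 95% interval (vertical axis) of the 15 auxiliary subunit genes tested (horizontal axis, beta, alpha2delta and then gamma) in MRL/lpr and MRL/lpr+MSC against MRL/mpj mice, with dotted lines at 1.5-fold and filled points for differential expression. Cacng3 in MRL/lpr mice (-0.59) and Cacna2d4 in MRL/lpr+MSC mice (-0.90) are filled, and Cacna2d2 has the highest values and the widest intervals.

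Proteins that bind or restrain the channels showed 0 of 11 differentially expressed genes in each comparison. The shares of all genes were 5.79% in MRL/lpr and 3.43% in MRL/lpr+MSC against MRL/mpj mice, and 0% in MRL/lpr+MSC against MRL/lpr mice. In MRL/lpr mice their log2 fold changes ran from -0.64 for Cabp1, a calmodulin-like calcium sensor of these channels, to 1.30 for Rrad, an RGK inhibitor of the channel at 1.05 CPM in the controls, with a median of -0.03. The range in MRL/lpr+MSC mice was from -0.98 for Stac to 0.71 for Rrad.

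Of 15 genes of calcium stores, pumps and exchangers, which hold or clear cytoplasmic calcium, 2 were differentially expressed in MRL/lpr mice, against 5.79% of all genes, and both were plasma membrane calcium pumps. Atp2b1 was lower, with 1394, 1565 and 1578 CPM in MRL/mpj and 871, 908 and 741 CPM in MRL/lpr libraries (log2 fold change -0.85, adjusted p = 0.00770 by limma voom). Atp2b4 was higher, with 42.3, 30.0 and 37.5 CPM in MRL/mpj and 184, 95.4 and 339 CPM in MRL/lpr libraries (log2 fold change 2.33, adjusted p = 0.0338 by limma voom). Both groups of libraries were apart for each gene, and for Atp2b4, as for Cacna1g, MRL/lpr replicate 2 was the lowest and replicate 3 the highest of its group. Of the 15, 3 were differentially expressed in MRL/lpr+MSC mice, against 3.43% of all genes, Atp2b1 at -0.66, Atp2b4 at 2.28 and the sodium-calcium exchanger Slc8a2 at -0.61, with 387, 442 and 385 CPM in MRL/lpr+MSC and 598 to 632 CPM in MRL/mpj libraries. The median log2 fold change of the 15 genes was -0.04 in MRL/lpr and -0.02 in MRL/lpr+MSC mice.

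Of 15 calcium sensors and effectors that act behind the channels, 3 were differentially expressed in MRL/lpr mice, against 5.79% of all genes, and all 3 were lower. The log2 fold changes were negative for 12 of the 15, against 47.2% of all genes, with a median of -0.38. The 5 pan-neuronal markers were all negative too, with a median of -0.34, and the part of neuron content was not tested. Camk4, the kinase that relays nuclear calcium to transcription, had 195, 214 and 252 CPM in MRL/mpj and 93.7, 119 and 78.2 CPM in MRL/lpr libraries (log2 fold change -1.20, adjusted p = 0.0136 by limma voom). Ppp3r1, the regulatory subunit of calcineurin, fell from 1099 ± 57.5 to 671 ± 75.7 CPM (SD, n = 3 each), with a log2 fold change of -0.71 (adjusted p = 0.0116 by limma voom). Pvalb, the calcium buffer parvalbumin and itself an interneuron marker, fell from 46.3 ± 4.47 to 23.3 ± 0.424 CPM (SD, n = 3 each), with a log2 fold change of -0.98 (adjusted p = 0.00339 by limma voom). By adjusted p alone, 7 of 15 passed, against 9.3% of all genes, all lower, among them calmodulin genes Calm2 and Calm3 and the calcineurin subunits Ppp3ca and Ppp3cb. Calb2, the buffer calretinin, had the largest value, 3.23 in MRL/lpr (adjusted p = 0.0605 by limma voom), with 6.10 to 10.4 CPM in MRL/mpj and 94.2, 29.2 and 120 CPM in MRL/lpr libraries.

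Of these 15 genes, 2 were differentially expressed in MRL/lpr+MSC mice, against 3.43% of all genes, and both were higher. The list as a whole was lower, with negative log2 fold changes for 13 of the 15, against 48.3% of all genes, and a median of -0.31. By adjusted p alone, 2 were higher and 3 lower, against 5.01% of all genes. Calb2 had 32.0, 69.4 and 104 CPM in the MRL/lpr+MSC libraries (log2 fold change 3.06, adjusted p = 0.0472 by limma voom), and the kinase Camk2d had 79.5, 71.4 and 118 CPM against 34.0 to 48.6 CPM in MRL/mpj libraries (log2 fold change 1.11, adjusted p = 0.0400 by limma voom). Camk4 had the lowest value, -0.83 (adjusted p = 0.131 by limma voom), with 189, 109 and 89.8 CPM. No auxiliary, store, pump or sensor gene was differentially expressed between MRL/lpr+MSC and MRL/lpr mice by limma voom, 0 of the 56 genes of these lists that were tested, and limma-trend also gave 0. The calls on these partner genes depended on single libraries, and the 6 genes that differed between MRL/lpr and MRL/mpj mice became 18 when MRL/lpr replicate 2 was left out and 2 when MRL/mpj replicate 3 was.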

How the data were processed

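The authors extracted hippocampal RNA, selected poly-A RNA and sequenced 1 library per mouse. Per the study's methods, reads were aligned with STAR to mm10 and counted per gene with HTSeq, while the submitters' processing notes name TopHat2 and GRCm38, so the aligner is uncertain. Whether counting used strand was not given in the sources used here. The authors deposited raw whole-number counts in 1 matrix of 47643 genes and FPKM values (counts divided by gene length and library size) for each library, and 0 value columns had no sample. Nothing said that mice came from separate litters or batches.

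The 8 members, the partner lists and the marker lists were chosen with earlier results of these data known. Counts were scaled by TMM (trimming 30% of log ratios and 5% of levels), giving CPM. Genes entered a comparison when at least 3 libraries reached the CPM of 10 counts in a library of median size with at least 15 counts in total. In R 4.3.3, limma 3.58.1 (with statmod 1.5.0) fitted voom weights and robust moderation on the 6 libraries of each comparison, and p-values were adjusted by Benjamini-Hochberg across every gene tested. This test is called limma voom, and differential expression means at least 1.5-fold and an adjusted p under 0.05, as in the study. The quasi-likelihood test on counts that the plan named first was not run, because the separator of the matrix kept its unit from being registered as counts, and the plan named limma voom for that case. The test was tried on simulated counts. All 9 pairs of libraries within groups differed by more than sampling noise (lowest chi-square per gene, 10.1).

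The text names the 8 members, the partner genes that were differentially expressed or had the largest or smallest fold change of their list, at most 2 leading markers of a list, Fas, and the 3 genes most like a member that passed, by Pearson r of log2 CPM (prior 0.5). Calm2, Calm3, Ppp3ca, Ppp3cb, Cacnb2 and Cacng8 were named for their adjusted p after their values were seen. Alternatives were median-of-ratios scaling, other filters, 1 fit of all 9 libraries, a test against 1.5-fold instead of 0, a block for the replicate number, GC content and length corrected by loess (span 0.4), no minimum fold, and each library left out. limma-trend and library quality weights were added after the data were seen.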

Additional observations from a re-analysis of the deposited data

How the results depend on the processing

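Each of the 8 members was recomputed under 15 alternatives in 3 comparisons. Against MRL/mpj mice, 117 of the 120 values of MRL/lpr mice kept their sign and their call (at least 1.5-fold with an adjusted p under 0.05), 2 came to be called (Cacna1g) and 1 changed sign. In MRL/lpr+MSC against MRL/mpj mice 112 of 120 kept both, 3 were no longer called (Cacna1g) and 5 changed sign, and in MRL/lpr+MSC against MRL/lpr mice 107 of 120 kept both and 13 changed sign. By adjusted p alone, in MRL/lpr against MRL/mpj mice Cacna1b passed in 9 of 15 alternatives, Cacna1g in 2, and Cacna1a and Cacna1e in 1 each, and in MRL/lpr+MSC against MRL/mpj mice Cacna1g passed in 12 and Cacna1a in 1. The direction of Cacna1g against MRL/mpj mice held in all 15 alternatives of both comparisons.

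The number of alpha-1 members differentially expressed in MRL/lpr against MRL/mpj mice was 0, and became 1 with library quality weights (Cacna1g) and 1 with no minimum fold (Cacna1b), and 0 to 1 with each library left out. In MRL/lpr+MSC against MRL/mpj mice the 1 member became 0 in the test against a 1.5-fold change and 0 with all 9 libraries in 1 fit, and 0 to 1 with each library left out. The 6 partner genes of MRL/lpr against MRL/mpj mice became 0 in the test against a 1.5-fold change, 12 with quality weights, 13 with no minimum fold and 2 to 18 with each library left out. The 6 partner genes of MRL/lpr+MSC against MRL/mpj mice became 3 with no filter on low counts, 1 in the test against a 1.5-fold change, 3 with all 9 libraries in 1 fit, 10 with quality weights, 10 with no minimum fold and 1 to 10 with each library left out. The cause was not tested.

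Values near 0 changed sign. With library quality weights, log2 fold changes were -0.11 for Cacna1c in MRL/lpr+MSC against MRL/mpj mice, and -0.0020 for Cacna1a and 0.0011 for Cacna1h in MRL/lpr+MSC against MRL/lpr mice. With each library left out, Cacna1c ran from -0.40 to 0.16 in MRL/lpr against MRL/mpj mice. In MRL/lpr+MSC against MRL/mpj mice, Cacna1b ran from -0.21 to 0.024, Cacna1c from -0.21 to 0.16 and Cacna1i from -0.0041 to 0.53. In MRL/lpr+MSC against MRL/lpr mice, Cacna1a ran from -0.036 to 0.15, Cacna1c from -0.13 to 0.43, Cacna1d from -0.13 to 0.029, Cacna1e from -0.055 to 0.17, Cacna1g from -0.24 to 0.43 and Cacna1h from -0.25 to 0.091.

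Over all genes, the 967 genes of MRL/lpr against MRL/mpj mice ran from 104 (test against a 1.5-fold change) to 2065 (quality weights), and with a library left out the fewest were 165, when that was MRL/mpj replicate 3, and the most 1695, when it was MRL/lpr replicate 2. For the 556 genes of MRL/lpr+MSC against MRL/mpj mice the fewest were 193, when MRL/mpj replicate 1 was left out, and the most 1514, when MRL/lpr+MSC replicate 1 was. For replicates 1, 2 and 3, deviations of same-numbered libraries had r of -0.02, 0.13 and 0.05 for MRL/lpr with MRL/mpj. They had -0.06, 0.13 and 0.22 for MRL/lpr+MSC with MRL/mpj, and -0.21, 0.25 and 0.40 for MRL/lpr+MSC with MRL/lpr. Libraries of different numbers had r from -0.44 to 0.23. The r of same-numbered libraries was negative for replicate 1 and positive for replicates 2 and 3 in each comparison. These values cannot settle whether the numbers pair the mice. With the replicate number as a block, 1333, 280 and 0 genes were differentially expressed in the 3 comparisons, with 0, 1 and 0 alpha-1 members and 7, 4 and 0 partner genes. DESeq2 and edgeR were not run. With 3 libraries per group, the intervals of Cacna1c, Cacna1g and Cacna1i in MRL/lpr+MSC against MRL/lpr mice each spanned more than 1 unit of log2.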
